A study of Mus musculus with 33 samples.

Results

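The 9 genes described here belong to the antiviral branch of the interferon response: Stat2, Irf9 and Irf7, which encode transcription regulators, Ifit1, Ifit3, Oasl2 and Isg15, which encode effector proteins, Usp18, which encodes a feedback inhibitor, and Ddx58, which encodes the viral RNA sensor RIG-I. They were taken by gene symbol, with every probe annotated to those symbols, out of 19057 genes with a probe on the array. Together they had 16 probes of 45281. For each gene the probe that was brightest on average over all 33 arrays stood for the gene. Of the 9 genes 8 passed the filter on dim probes, a detection p under 0.01 on at least 3 arrays, and were tested among 9630 genes.

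Interferons are secreted alarm proteins that bind receptors on the cell surface, and the kinases on those receptors phosphorylate STAT proteins. STAT2 then joins IRF9 and a partner STAT in a complex that enters the nucleus and binds the interferon-stimulated response element, a short DNA motif in the promoters of antiviral genes. IRF7 is itself induced in this way and amplifies interferon production, while USP18 removes ISG15 from proteins and blocks the receptor. Many tissues express these genes at a low basal level without infection.

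Interscapular brown fat of C57BL/6J mice, the heat-producing depot between the shoulder blades, was profiled on Illumina mouse bead arrays. High-fat groups had eaten a diet of 39.2 kcal% fat, with 20% fat and 1% cholesterol, for 2, 4, 8, 20 or 24 weeks, and normal diet groups had eaten AIN-76 semi-purified diet to week 0, 2, 4, 8, 20 or 24. Each of the 11 groups had 3 arrays, and every animal was housed singly at 24 °C with 12 hours of light. Every sample carries an age of 7 weeks in the labels, which do not say that replicates were separate animals, so p-values measure only the spread between these samples.

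Array medians of intensity lay between 129.5 and 182.7, and 29.46% to 33.75% of probes were detected per array. The 6 arrays of week 24 stood apart on the first principal component (35.89% of the variance), with scores of 33.49 to 46.73 there and -16.77 to 3.858 on the other arrays. Each diet difference was therefore taken within a week. Of 10 brown adipocyte markers 8 were measured, among them Ucp1 and Cidea on all 33 arrays.

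The promoters are shown because the response element is the route by which this pathway acts on its targets, and because its number and place differ between these genes. RefSeq windows of 300 bases, from 250 before to 50 after each gene's start on GRCm38.p6, were found for 8 of the 9 genes. They were searched on both strands for the core of the element, GAAA followed by any 2 bases and GAAA again, or its reverse complement with TTTC on both sides, with overlapping matches counted. Of all 32851 windows 3.44% held it. It was present in 5 of the 8 genes, Isg15, Ifit1, Ifit3, Stat2 and Ddx58, and no match lay in the windows of Irf7, Irf9 and Oasl2. In the stretches below, read 5′ to 3′ along the gene's own strand, capitals mark the matches. Isg15 (chr4:156200845-156200926, minus strand) has 3 overlapping matches, Ifit3 (chr19:34583343-34583446, plus strand) and Ifit1 (chr19:34640755-34640843, plus strand) have 2 each, and Stat2 (chr10:128270248-128270315, plus strand) has 1.
Isg15: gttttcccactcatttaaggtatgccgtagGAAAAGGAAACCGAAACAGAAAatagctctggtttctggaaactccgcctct
Ifit3: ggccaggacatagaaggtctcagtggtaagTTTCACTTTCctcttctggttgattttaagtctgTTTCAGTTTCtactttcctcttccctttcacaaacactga
Ifit1: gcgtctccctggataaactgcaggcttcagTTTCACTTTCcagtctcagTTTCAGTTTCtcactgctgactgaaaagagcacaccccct
Stat2: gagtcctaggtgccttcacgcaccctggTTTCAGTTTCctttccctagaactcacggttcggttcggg
Ifit3 and Ifit1 carry the same pair of letter strings in the same order, first TTTCACTTTC and then TTTCAGTTTC, with first bases at -156 and -122 from the start of Ifit3 and at -104 and -85 from that of Ifit1. The matches of Isg15 begin at -78, -72 and -66, and that of Stat2 at -222. A match describes these letters only and does not show that a factor binds there.

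On average over the 5 weeks, 5 of the 8 measured genes rose on high-fat diet and none fell, by limma with Benjamini-Hochberg adjustment over all 9630 genes, where 15.4% of genes rose and 11.7% fell. These were Stat2, Ifit3, Irf9, Ddx58 and Oasl2. Their rises were small, from 0.33 to 0.41 log2 units, or 1.26-fold to 1.33-fold. The size depended on the background step: the same 5 genes passed without background correction, at 0.18 to 0.35, and in the log2 values the authors deposited, at 0.20 to 0.35, and the median over the 8 genes was then 0.19 and 0.20. Irf7, Isg15 and Usp18 also had positive differences but did not pass. The median difference over the 8 genes was 0.34, against 0.0024 over all genes tested. In bulk tissue fewer or more cells of a type and less or more RNA per cell cannot be told apart, and this holds for each value below. With the mean level of 12 macrophage markers as a covariate none of the 8 passed, 131 of 9630 genes passed in place of 2609, and 6 of 8 differences were positive with a median of 0.17. In that fit Stat2 stood at 0.41 (SE 0.25), Oasl2 at 0.41 (SE 0.18), Ifit3 at 0.27 (SE 0.15), Ddx58 at 0.20 (SE 0.18) and Irf9 at 0.15 (SE 0.16). Isg15 stood at -0.17 (SE 0.17) and Usp18 at -0.27 (SE 0.15), both negative there. The differences of Stat2 and Oasl2 were thus about as large or larger than without the covariate, and those of Ifit3, Ddx58 and Irf9 were smaller. All 5 had wider errors. What part macrophages had in these rises was not tested.

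**Figure D1:**
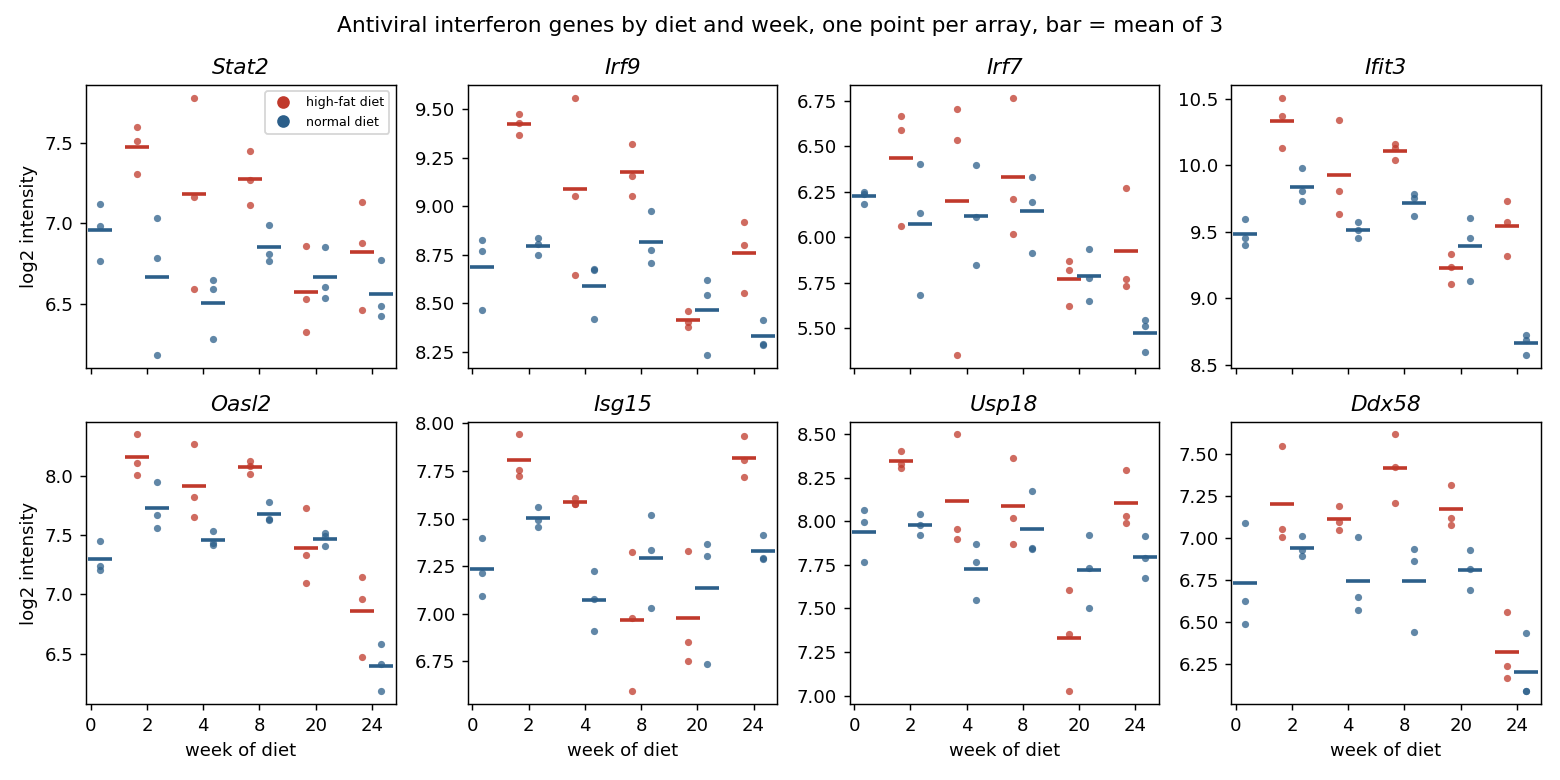
Normalized log2 intensity of the 8 measured genes (vertical axes) by week of diet (horizontal axes), 1 point per array, with high-fat diet in red and normal diet in blue and a bar at the mean of 3 arrays. High-fat week 2 was the highest group for 6 of the 8 genes, and at week 20 the diets overlapped for each gene but Ddx58.

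Among the regulators, Stat2 averaged 7.47, 7.18, 7.28, 6.57 and 6.82 log2 units on high-fat diet at weeks 2, 4, 8, 20 and 24. Normal diet groups averaged 6.96, 6.67, 6.50, 6.85, 6.66 and 6.56 at weeks 0, 2, 4, 8, 20 and 24, with a pooled SD of 0.29 (n = 3 per group). The mean within-week difference was 0.41 (SE 0.0998, adjusted p = 0.00279). At week 2 the 3 high-fat arrays read 7.30, 7.59 and 7.51, against 7.03, 6.18 and 6.78 on normal diet. The groups did not overlap there, yet the difference of 0.80 missed the threshold (SE 0.22, adjusted p = 0.0582). No pair of neighbours in the order of the 11 groups was free of overlap for Stat2.

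Irf9, the DNA-binding partner of STAT2, averaged 9.42, 9.09, 9.17, 8.41 and 8.76 on high-fat diet at weeks 2, 4, 8, 20 and 24. On normal diet it averaged 8.69, 8.80, 8.59, 8.82, 8.47 and 8.33 at weeks 0, 2, 4, 8, 20 and 24 (pooled SD 0.19). Its mean diet difference was 0.37 (SE 0.067, adjusted p = 0.000167). At week 2 the high-fat arrays read 9.43, 9.47 and 9.37, against 8.83, 8.75 and 8.80 on normal diet, a rise of 0.63 (SE 0.15, adjusted p = 0.0270). At week 24 they read 8.80, 8.55 and 8.92, against 8.29, 8.28 and 8.41, a rise of 0.43 (SE 0.15, adjusted p = 0.0434). Neither week showed overlap. The week 2 call was lost without any 1 of that week's 6 arrays (adjusted p = 0.0588 to 0.112), although the difference itself stayed between 0.60 and 0.66. The week 24 call was lost without high-fat replicate 1 or 3 or normal diet replicate 1 or 2 of that week (adjusted p = 0.110 to 0.172). A dimmer Irf9 probe, detected on 31 arrays, gave 0.86 at week 2 and 0.41 over all weeks.

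Irf7 was near the limit of detection. Its probe was detected on 17 of 33 arrays, and on none of the 3 arrays of high-fat week 20, normal diet week 20 and normal diet week 24. High-fat groups averaged 6.44, 6.20, 6.33, 5.77 and 5.93 at weeks 2, 4, 8, 20 and 24, and normal diet groups 6.23, 6.075, 6.12, 6.15, 5.79 and 5.48 at weeks 0, 2, 4, 8, 20 and 24 (pooled SD 0.33). The mean diet difference was 0.21 (SE 0.11, adjusted p = 0.169). Its interval at 95% confidence ran from -0.02 to 0.44, so neither no difference nor one as large as that of Stat2 lay outside it. For Irf7 high-fat week 4 held the widest spread, with arrays at 6.70, 6.54 and 5.36. Without the lowest of them (replicate 3), which could only raise it, the mean difference was 0.30 (adjusted p = 0.0151). Over all fits without 1 array it ran from 0.16 to 0.30.

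Of the effector genes, Ifit3, which encodes a protein that holds IFIT1 on foreign RNA, had the smallest adjusted p of the set. High-fat groups averaged 10.34, 9.93, 10.11, 9.23 and 9.54 at weeks 2, 4, 8, 20 and 24. Normal diet groups averaged 9.48, 9.84, 9.51, 9.72, 9.40 and 8.66 at weeks 0, 2, 4, 8, 20 and 24 (pooled SD 0.18). The mean difference of 0.40 (SE 0.063) passed with an adjusted p of 2.76e-05. At weeks 2, 4, 8 and 24 every high-fat array of Ifit3 lay above every normal diet array. At week 24 the high-fat arrays stood at 9.57, 9.32 and 9.74 and the normal diet arrays at 8.72, 8.68 and 8.57. That rise of 0.88 (SE 0.14, adjusted p = 3.88e-05) was the largest single-week difference in the set, and it also passed without any 1 of the 33 arrays. The second Ifit3 probe, detected on 26 arrays, differed by 0.26 at week 24 and by 0.15 over all weeks.

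Oasl2, an oligoadenylate synthetase-like gene, averaged 8.16, 7.92, 8.08, 7.39 and 6.86 on high-fat diet at weeks 2, 4, 8, 20 and 24. The normal diet averages were 7.30, 7.73, 7.46, 7.68, 7.47 and 6.39 at weeks 0, 2, 4, 8, 20 and 24 (pooled SD 0.21). The mean diet difference was 0.33 (SE 0.073, adjusted p = 0.00118). Both diets had their lowest Oasl2 level at week 24, where the high-fat arrays read 6.96, 6.47 and 7.14, against 6.58, 6.41 and 6.18. The groups overlapped by 1 high-fat array, and the rise of 0.47 (SE 0.16) stood just inside the threshold (adjusted p = 0.0423). It was lost without high-fat replicate 1 or 3 or normal diet replicate 2 or 3 of that week (adjusted p up to 0.227). It was also lost without background correction (0.21, adjusted p = 0.114) and in the log2 values the authors deposited (0.24, adjusted p = 0.0818). A dimmer Oasl2 probe, detected on 20 arrays, gave 0.35 at week 24 and 0.23 over all weeks.

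Ifit1, the partner of IFIT3 that binds RNA lacking a self mark, had 1 probe and was detected on 0 of 33 arrays. Its intensities ran from 100.6 to 165.9, and its lowest detection p was 0.128. It was not tested, and its probe was not detected in any of the 11 groups.

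Isg15 encodes a ubiquitin-like protein that is attached to other proteins, and it had its highest and lowest groups on the same diet. On high-fat diet it averaged 7.81, 7.59, 6.96, 6.98 and 7.82 at weeks 2, 4, 8, 20 and 24. On normal diet it averaged 7.23, 7.5, 7.07, 7.29, 7.14 and 7.33 at weeks 0, 2, 4, 8, 20 and 24 (pooled SD 0.21). High-fat week 24 was its highest group and high-fat week 8 its lowest. The week 24 arrays read 7.72, 7.81 and 7.93 on high-fat diet, against 7.41, 7.29 and 7.28 on normal diet, with no overlap and a rise of 0.49 (SE 0.17, adjusted p = 0.0371). At week 8 the high-fat arrays read 6.59, 7.33 and 6.98, against 7.52, 7.34 and 7.03 on normal diet. That difference of -0.33 did not pass (adjusted p = 0.3) but did when arrays were scaled by their medians (-0.59, adjusted p = 0.00931). Under that scaling 3725 of 9630 genes passed at week 8, 0.913% of them higher, and the median of all genes was -0.31. The mean Isg15 difference over the weeks was 0.16 (SE 0.074, adjusted p = 0.101). Without week 8 the mean was 0.29 (adjusted p = 0.00421), and without high-fat week 8 replicate 1 it was 0.20 (adjusted p = 0.0306). Week 8 had the most negative difference, so leaving out that week or its lowest high-fat array could only raise the mean. Over all fits without 1 array the mean ran from 0.12 to 0.20. The week 24 call was lost without any 1 of that week's 6 arrays (adjusted p = 0.0527 to 0.125).

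Usp18 averaged 8.35, 8.12, 8.08, 7.33 and 8.10 on high-fat diet at weeks 2, 4, 8, 20 and 24. It averaged 7.94, 7.98, 7.73, 7.95, 7.72 and 7.79 on normal diet at weeks 0, 2, 4, 8, 20 and 24 (pooled SD 0.20). Its mean difference of 0.16 (SE 0.071) did not pass (adjusted p = 0.0912). Week 20 ran against the others, with high-fat arrays at 7.02, 7.61 and 7.35, against 7.73, 7.92 and 7.51, a difference of -0.39 (SE 0.16, adjusted p = 0.153). The mean was 0.30 (adjusted p = 0.00512) without week 20, and 0.19 (adjusted p = 0.0387) without high-fat week 20 replicate 1. Leaving out the week with the negative difference, or its lowest high-fat array, could only raise the mean. Over all fits without 1 array the mean ran from 0.12 to 0.19. A dimmer Usp18 probe, detected on 15 arrays, gave -0.02 at week 20 and 0.13 over all weeks.

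Ddx58, the sensor, averaged 7.20, 7.11, 7.41, 7.17 and 6.33 on high-fat diet at weeks 2, 4, 8, 20 and 24. Its normal diet averages were 6.74, 6.94, 6.74, 6.75, 6.81 and 6.20 at weeks 0, 2, 4, 8, 20 and 24 (pooled SD 0.21). It was the only one of the 8 with a positive difference at all 5 weeks, with a mean of 0.35 (SE 0.073, adjusted p = 0.000655). High-fat arrays read 7.21, 7.61 and 7.42 at week 8, against 6.93, 6.44 and 6.87 on normal diet. They did not overlap, and the rise was 0.67 (SE 0.16, adjusted p = 0.0295). The week 8 call was lost without high-fat replicate 2 or any normal diet replicate of that week (adjusted p = 0.0519 to 0.148), in the 6 arrays of the week alone (adjusted p = 0.371), and when arrays were scaled by their medians (0.39, adjusted p = 0.0774). The other probes for Ddx58 were detected on 0 arrays.

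**Figure D2:**
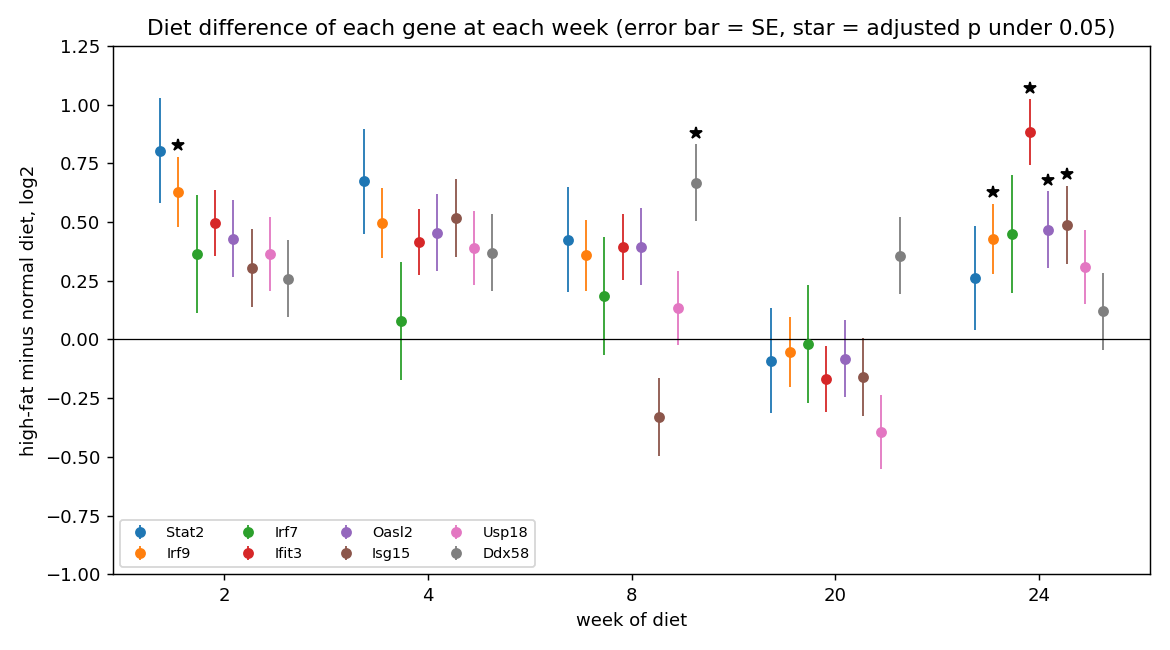
High-fat minus normal diet difference in log2 units (vertical axis) of the 8 measured genes at each week of diet (horizontal axis), with bars for the SE of the fit and stars where the adjusted p is under 0.05. Differences are positive at weeks 2 and 4, near or under 0 at week 20 except for Ddx58, and 4 genes carry a star at week 24.

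Week by week, the set gave few calls while its differences mostly pointed up. At week 2 Irf9 passed, 1 of 8, where 1.13% of all genes rose, and 6 of 8 genes had no overlap between diets with high-fat arrays above, where 12.2% of all genes did. At week 4 none passed, where 0.727% of all genes rose. Without overlap and higher at week 4 were 5 of 8 genes, against 12% of all genes. At week 8 Ddx58 passed, 1 of 8 against 0.924% of all genes, with 5 of 8 free of overlap and higher against 7.77%. Week 8 depended on the scaling: with arrays scaled by their medians the median of all genes was -0.31, that of the 8 genes was 0.03 in place of 0.37, 5 of 8 were positive in place of 7, and Isg15, lower, was the gene that passed. Of all genes 3725 passed under that scaling, 0.913% of them higher. At week 24, 4 of 8 rose (Ifit3, Isg15, Oasl2 and Irf9), where 12.7% of all genes rose, and 5 of 8 were free of overlap and higher against 20.6%.

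High-fat week 4 was uneven. Replicate 2 read 9.56 for Irf9, 10.34 for Ifit3, 7.78 for Stat2 and 8.50 for Usp18, and replicate 3 read 8.64, 9.64, 6.59 and 7.90 for the same genes. The mean over the 8 genes spanned 7.55 to 8.22 on these 3 arrays, against 7.45 to 7.48 on the normal diet arrays of that week. Without replicate 3, the lowest for both genes, Irf9 (0.72, adjusted p = 0.00839) and Stat2 (0.96, adjusted p = 0.0217) passed at week 4. Without replicate 2, the highest, their differences were 0.26 and 0.37. The 3 high-fat week 4 arrays spanned 8.41 to 9.91 in the mean of 10 interferon-inducible GTPases.

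Week 20 differed in sign. None of the 8 passed in either direction, where 3.04% of all genes rose and 1.62% fell. Ddx58 alone had a positive difference there, at 0.36 (SE 0.16, adjusted p = 0.215) and without overlap, 1 of 8 where 14.2% of all genes were higher without overlap, and the median over the 8 genes was -0.09. For Ifit3 the week 20 high-fat arrays read 9.11, 9.23 and 9.34, against 9.45, 9.61 and 9.13 on normal diet. For Irf9 they read 8.38, 8.46 and 8.40, against 8.54, 8.62 and 8.23. Both diets overlapped in these 2 genes.

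Whether the diet difference itself varied over the weeks was tested with an F test on the diet by week terms. Ifit3 (adjusted p = 0.0151) and Isg15 (adjusted p = 0.0432) passed, 2 of 8, where 6.41% of all genes passed. The call of Ifit3 was lost in 1 of 33 fits that left out an array, that of normal diet week 20 replicate 2, and the call of Isg15 was kept in 7 of 33. The difference at weeks 20 and 24 minus that at weeks 2 and 4 was negative for all 8 genes, from -0.65 in Stat2 to -0.0057 in Irf7. None passed, where 5.01% of all genes did. The smallest adjusted p values were those of Stat2 (SE 0.22, adjusted p = 0.0924), Usp18 (-0.42, SE 0.16, adjusted p = 0.130) and Irf9 (-0.37, SE 0.15, adjusted p = 0.162). Without high-fat week 4 replicate 3 the count that passed was 2.

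Within normal diet, levels also moved with time. An F test over the 6 weeks passed for Oasl2, Ifit3, Ddx58 and Irf9, 4 of 8, where 66.5% of all genes passed. At week 20 none of the 8 passed against week 0, where 33.2% of all genes did. At week 24, 4 of 8 had fallen below week 0, where 24.2% of all genes fell: Oasl2 by 0.91 on the log2 scale (SE 0.16, adjusted p = 6.09e-05), Ifit3 by 0.82 (SE 0.14, adjusted p = 3.21e-05), Ddx58 by 0.53 (SE 0.16, adjusted p = 0.00918) and Irf7. Dimmer probes gave smaller falls, -0.53 for Oasl2 (detected on 20 arrays) and -0.34 for Ifit3 (detected on 26 arrays). At week 20 against week 0 that dimmer Oasl2 probe gave -0.45, where the probe used gave 0.17. Irf7 was not well above background at week 24 and was at least 1.13-fold lower there, with measured means of 5.48 at week 24 and 6.23 at week 0 (adjusted p = 0.0161). That bound uses, on each array, whichever is brighter of the dimmest detected probe and the Irf7 probe. In the same contrast 10 of 13 skeletal muscle markers rose (median 1.80), where 24.1% of tested genes with a promoter window rose. Of 11 endothelial markers 6 fell (median -0.44), where 24.2% of all genes fell. At week 20 against week 0, where none of the 8 genes passed, both lists had moved alike. There 13 of 13 muscle markers rose (median 1.58), where 14.3% of tested genes with a promoter window rose. Of the endothelial markers 6 of 11 fell (median -0.46), where 33.2% of all genes passed in either direction. At week 24 against week 0, with the muscle mean as a covariate, Ddx58 (-0.40, adjusted p = 0.126) and Irf7 (-0.39, adjusted p = 0.307) lost their calls. Oasl2 (-0.70, adjusted p = 0.00635) and Ifit3 (-0.71, adjusted p = 0.00248) kept theirs. All normal diet arrays of week 24 also lay apart on the first principal component, so time on diet and what sets those arrays apart cannot be told apart. Without week 24 none of the 8 passed the F test over the remaining weeks. On high-fat diet 7 of 8 passed over the 5 weeks, where 64.4% of all genes did, and Irf7 was the exception (adjusted p = 0.0963).

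The 8 genes did not follow each other equally. Over the 27 arrays of weeks 0 to 20 the correlation of each gene with the mean of the other 7 was 0.95 for Irf9, 0.94 for Ifit3, 0.80 for Usp18, 0.80 for Oasl2 and 0.75 for Stat2. It was 0.61 for Irf7, 0.50 for Isg15 and 0.41 for Ddx58. Irf9 and Ifit3 thus tracked the set most closely, and the sensor gene least. With group means removed, over 33 arrays, the values were 0.79 for Irf9, 0.82 for Ifit3 and 0.13 for Ddx58. These are Pearson correlations across arrays that share their group, hybridization and normalization, and they are given as a description.

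Genes outside the set whose pattern was most like its mean were picked by the correlation with the mean of the z-scored members over the same 27 arrays. The closest was Psmb9, an immunoproteasome subunit, at 0.93, followed by Samhd1, a nuclease that limits viral DNA synthesis, at 0.93 and the GTPase gene Gbp3 at 0.91. H2-T23, Igtp, H2-Q5, Irgm2, Psmb8, Gbp7 and Tap1 followed, at 0.91 to 0.88. They encode class I molecules (H2-T23, H2-Q5), GTPases (Igtp, Irgm2, Gbp7), another immunoproteasome subunit (Psmb8) and the peptide transporter (Tap1). Once group means were removed over 33 arrays, the closest was Igtp at 0.84, and 7 of the 10 names stayed, with Gbp2, Ido1 and Cxcl9 in place of the others.

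The other genes of the pathway were described from lists of ligands, receptors, regulators, sensors and targets. Of 17 interferon genes listed 2 were measured, Ifna1 (0.04) and Ifnab (-0.19), and neither passed. Among 7 receptor and kinase genes none passed on average, and their median was -0.04. At week 24 Ifngr2, a chain of the interferon-gamma receptor, rose by 0.69 (adjusted p = 0.000134), 1 of 7 where 12.7% of all genes rose, a share near the background. The remaining STAT and IRF genes gave 3 higher and 1 lower of 9, where 15.4% of all genes rose and 11.7% fell. Irf3, which relays sensor signals, rose by 0.14 (adjusted p = 0.00107), Irf1, a target of interferon-gamma, by 0.22 (adjusted p = 0.00714) and Irf5 by 0.32 (adjusted p = 0.00772). Irf5 differed by 1.43 at week 24 and by -0.09 to 0.27 at the other 4 weeks, and without week 24 the list had 2 higher. Irf4, which regulates fat breakdown genes in adipocytes, fell by 0.65 (SE 0.11, adjusted p = 0.000107), with single-week calls at week 8 (-1.13) and week 20 (-1.15).

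Among 11 inhibitors 2 rose and 1 fell, shares near the 15.4% and 11.7% of all genes. Socs3, which blocks receptor kinases, rose by 0.53 (SE 0.091, adjusted p = 8.80e-05), and Ptpn6, a phosphatase of blood cells, by 0.32 (SE 0.083, adjusted p = 0.005). Pias4 changed by -0.18 (adjusted p = 0.0426). The week 24 difference of Ptpn6 was 1.28 (adjusted p = 1.06e-05), and its other 4 weeks lay between -0.43 and 0.61 with none past the threshold.

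Of 14 sensors and adaptors 3 rose on average and none fell, where 15.4% of all genes rose. Trim25, which activates RIG-I, rose by 0.31 (SE 0.061, adjusted p = 0.000488), Dhx58, a helicase related to RIG-I, by 0.24 (SE 0.065, adjusted p = 0.00643), and Tlr7, detected on 6 arrays, by 0.28 (SE 0.092, adjusted p = 0.0253). Mavs, the adaptor through which RIG-I signals, differed by 0.04 (adjusted p = 0.595). Of the 3 ISG15 conjugation genes measured, the activating enzyme Uba7 rose by 0.56 (SE 0.063, adjusted p = 2.5e-07) and the conjugating enzyme Ube2l6 by 0.36 (SE 0.055, adjusted p = 2.42e-05). Ube2e1 changed by -0.17 (adjusted p = 0.0406).

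Other antiviral target genes went the way of the set: 20 of 33 rose and none fell, with a median of 0.23. Of all genes 15.4% rose and 11.7% fell. The antiviral targets that rose included Parp14 (0.55, SE 0.073, adjusted p = 2.87e-06) and the ubiquitin ligase gene Dtx3l (0.40, SE 0.056, adjusted p = 6.32e-06). The membrane restriction factors Ifitm3 (0.44, SE 0.061, adjusted p = 5.16e-06) and Ifitm1 (0.49, SE 0.069, adjusted p = 5.94e-06) rose too. At week 20 1 of 33 rose, near the 3.04% of all genes that did, and the median was -0.01. At week 24 13 of 33 rose, where 12.7% of all genes rose. With arrays scaled by their medians 12 of 33 rose, where 790 of all genes rose in place of 1486. Without week 24 the count was also 12, where 808 of all genes rose.

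Of 10 measured GTPases that are mainly induced by interferon-gamma 9 rose on average, where 15.4% of all genes rose, with a median of 0.59. The 10 GTPases had a median difference of 1.26 at week 2, 0.97 at week 4, 0.90 at week 8, -0.35 at week 20 and 0.20 at week 24. The antiviral set had medians of 0.40, 0.43, 0.37, -0.09 and 0.44 at the same weeks. The late minus early contrast passed for 7 of 10 GTPases, all lower late, and for 0 of 8 antiviral genes, where 5.01% of all genes passed. The diet by week test passed for 7 of 10 and for 2 of 8, where 6.41% of all genes passed. Whether the lists differ was not tested. In class I antigen presentation 9 of 12 rose, where 15.4% of all genes rose, with a median of 0.33. Among these 9 were Nlrc5, the regulator of class I genes (0.69, SE 0.11, adjusted p = 6.4e-05), B2m (0.35, SE 0.057, adjusted p = 5.93e-05) and the immunoproteasome gene Psmb8 (0.53, SE 0.091, adjusted p = 9.19e-05).

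**Figure D3:**
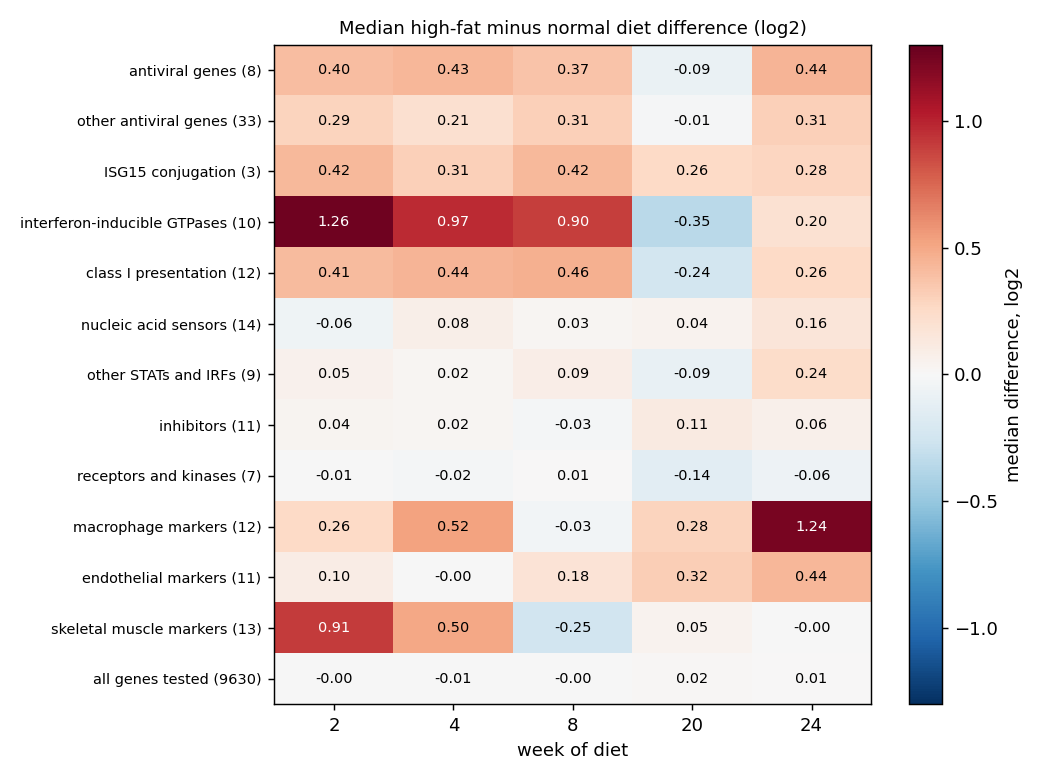
Median high-fat minus normal diet difference (log2, colour and printed value) of each gene list (rows, number of measured genes in brackets) at each week of diet (columns). The GTPases stand at 1.26 at week 2 and at -0.35 at week 20, and the macrophage markers reach 1.24 at week 24.

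Markers of other cells moved at some of the same weeks. Of 15 macrophage markers 12 were measured, and 10 of 12 rose on average, where 15.4% of all genes rose. Their median difference was 0.26 at week 2, 0.52 at week 4, -0.03 at week 8, 0.28 at week 20 and 1.24 at week 24. The mean level of the list ran from 7.86 to 9.30 over the high-fat arrays and from 7.67 to 8.67 over the normal diet arrays. At week 24, where 4 antiviral genes rose, all 12 macrophage markers rose, where 12.7% of all genes rose. Their part in the antiviral rises at that week was not tested. The macrophage mean did not overlap between diets there, at 9.17 to 9.30 on high-fat and 7.88 to 8.09 on normal diet. The fit with that mean as a covariate therefore cannot separate it from diet at week 24, and 4 of all genes passed in place of 1960. In that fit none of the 8 genes passed at week 24 and 4 of 8 were positive. Oasl2 stood at 0.69 (SE 0.52, adjusted p = 0.769) and Ifit3 at 0.49 (SE 0.44, adjusted p = 0.813). Irf9 stood at -0.23 (SE 0.46, adjusted p = 0.928) and Isg15 at -0.50 (SE 0.48, adjusted p = 0.831). Ddx58 at -0.33 and Usp18 at -0.97 were also negative there. At week 8 the macrophage median was -0.03 while 5 of 8 antiviral genes were higher without overlap. At week 20 the macrophage median was 0.28 while the antiviral median was -0.09. What part macrophages had at these weeks was not tested. Over the 27 arrays of weeks 0 to 20 the 2 list means correlated at -0.22, and with group means removed over all 33 arrays at 0.35. The antiviral mean correlated with that of the other antiviral targets at 0.90 and with that of the GTPases at 0.87 over the 27 arrays, and at 0.79 with each within groups.

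**Figure D4:**
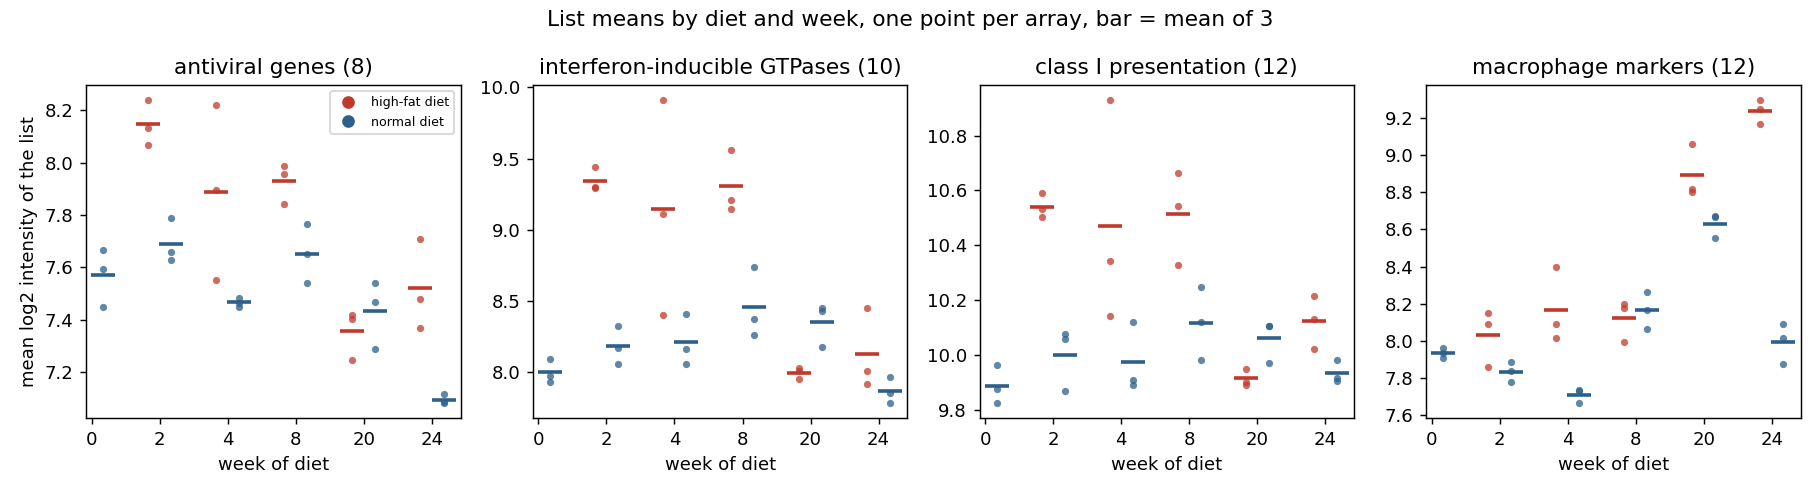
Mean log2 intensity (vertical axes) of the antiviral genes and of 3 other lists by week of diet (horizontal axes), 1 point per array, bar at the mean of 3, high-fat diet in red and normal diet in blue. The antiviral, GTPase and class I means are highest on high-fat diet at weeks 2 to 8, and the macrophage mean is highest on high-fat diet at week 24.

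Skeletal muscle markers, which can come with the dissection of this depot, had a median difference of 0.91 at week 2 and 0.50 at week 4, and 0 of 13 passed at either week. With their mean as a covariate 5 of 8 antiviral genes passed on average, as before, and 1 of 8 at week 2. Of 11 endothelial markers 8 rose on average, with a median of 0.22, where 15.4% of all genes rose. At week 24 7 of 11 rose, where 12.7% of all genes rose, with a median of 0.44. Their part in the antiviral rises of that week was not tested. Most defining lymphocyte markers were at or near 0 detected arrays. Cd4, Cd8a and Ms4a1 were detected on 0 arrays and Cd3e on at most 2, and none of the 3 measured (Cd79b, Cd8b1 and Nkg7) passed. Of 8 markers of plasmacytoid dendritic cells, the main producers of interferon-alpha, Siglech, Ccr9, Klk1 and Ly6d were detected on 0 arrays and Spib on 1. The other 3 were measured, Cox6a2 and Tcf4 on 33 arrays and Pacsin1 on 20. Of these only Tcf4 rose on average (0.17, adjusted p = 0.00885) and at week 24 (0.53, adjusted p = 0.000716). The other 2 did not pass, with differences of -0.04 and 0.41 on average and of -0.11 and -0.12 at week 24. With the other markers detected on 0 or 1 arrays, the presence of these cells was not shown, and a change in their number was not tested. The list means ran from 7.60 to 8.31 on high-fat and 7.72 to 8.32 on normal diet for lymphocytes. For neutrophils they ran from 5.81 to 6.57 on high-fat and 5.68 to 6.55 on normal diet.

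The motif shown above was also set beside the diet differences. Apart from the antiviral set, 285 tested genes had a promoter window with the motif. Of these 18.6% rose on average, against 15.1% of all 7833 tested genes with a window. Of the 285 genes 33 fell on average, a share near the 11.7% of all genes tested that fell. The shares that rose were 3.86% (11 genes) and 1.16% at week 2, 1.75% and 0.664% at week 4, and 2.81% and 0.868% at week 8. At week 20 they were 0.702% (2 genes) and 3%, and at week 24 14.7% and 12.3%. Within the set, 3 of the 4 tested genes with a match rose (Stat2, Ifit3 and Ddx58) and Isg15 did not pass. Of the 3 without a match Irf9 and Oasl2 rose and Irf7 did not pass.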

How the data were processed

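Brown fat RNA was measured on 33 arrays in 11 groups of 3. The authors deposited, for each probe, an average bead intensity on a linear scale and a detection p-value, per the file headers. The submitters' processing notes name BeadStudio 3.1.3. A table of log2 values that the authors deposited was used only as an alternative. From the intensities, background was corrected by normexp with controls inferred from the detection p-values, an offset of 16 was added, arrays were quantile normalized and log2 was taken (limma 3.58.1, R 4.3.3, data.table in version 1.17.8). A probe was kept with a detection p under 0.01 on at least 3 arrays, and the brightest kept probe stood for each gene, which left 17243 probes and 9630 genes. Of all probes 34885 had 1 gene symbol, 18 had several and 10378 had none. A fit of the 11 group means with lmFit and eBayes gave every contrast, with Benjamini-Hochberg adjustment over all 9630 genes and a threshold of 0.05. Precision is limited by 3 arrays per group. The script was tested on simulated data.

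The members and lists were chosen with earlier results of these data known. Named were all 9 members, up to 4 genes per list with the smallest p for the mean diet difference among those past the threshold, and the 10 genes most like the members' mean over 27 arrays and within groups over 33. Genes named outside that rule (Ifna1, Ifnab, Ifngr2, Mavs and the cell markers) were chosen after their values were seen. Alternatives covered normalization, background, filter, probe choice, weights, covariates, weeks and single arrays. Samples of the same replicate number did not deviate together (median correlation 0.0027 over 165 pairs, from -0.26 to 0.31).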

Additional observations from a re-analysis of the deposited data

Results flagged for a closer look

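The diet difference varied over the weeks by an F test on the diet by week terms (limma, adjusted over all genes) for 2 antiviral genes and 12 related ones. The antiviral genes were Ifit3 (adjusted p = 0.0151) and Isg15 (adjusted p = 0.0432). Among the GTPases were Irgm2 (adjusted p = 0.00541), Gbp3 (adjusted p = 0.01005), Igtp (adjusted p = 0.0122), Gbp2 (adjusted p = 0.0151), Gbp7 (adjusted p = 0.0341) and Ifi47 (adjusted p = 0.0428). Tap1 (adjusted p = 0.00585) and Nlrc5 (adjusted p = 0.0334) belong to class I presentation. The others were Ptpn6 (adjusted p = 0.000581), Irf5 (adjusted p = 0.00183), Ido1 (adjusted p = 0.0313) and Samhd1 (adjusted p = 0.0423).

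The difference at weeks 20 and 24 was lower than that at weeks 2 and 4 for 11 related genes in the same fit. The change in the difference was -1.80 in Igtp (SE 0.35, adjusted p = 0.00293), -1.34 in Irgm2 (SE 0.25, adjusted p = 0.00202) and -1.27 in Gbp2 (SE 0.26, adjusted p = 0.00395). It was -1.22 in Ido1 (SE 0.27, adjusted p = 0.00850), -1.15 in Tap1 (adjusted p = 0.00173), -1.15 in Gbp7 (adjusted p = 0.0108) and -1.15 in Gbp3 (adjusted p = 0.00588). It was -1.10 in Nlrc5 (adjusted p = 0.0116), -0.86 in Cxcl9 (adjusted p = 0.0291), -0.85 in Psmb9 (adjusted p = 0.0392) and -0.48 in Irf1 (adjusted p = 0.0344).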

How the results depend on the processing

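The 5 mean diet rises kept their direction in every alternative run and lost the threshold only with the macrophage mean as a covariate. In that fit Stat2 (0.41) and Oasl2 (0.41) were about as large or larger with a wider SE, and Ifit3, Ddx58 and Irf9 were smaller. The median over the 8 genes was 0.17 there, in place of 0.34. At week 24 the macrophage mean did not overlap between diets, so that fit cannot separate it from diet there. Of 8 genes, that covariate left 0 called for the mean, for week 2, for week 24 and for diet by week, and 1 each at week 20, late minus early and normal diet week 20 against week 0. It turned the sign of B2m (-0.0019), Gbp7 (-0.022), H2-D1 (-0.029), H2-Q5 (-0.057), H2-T23 (-0.049), Irf1 (-0.054), Irf5 (-0.16), Psmb8 (-0.055), Psmb9 (-0.14) and Ptpn6 (-0.19) over the weeks, and of Irf9 (-0.23) and Isg15 (-0.50) at week 24. Among members not called before, it made Isg15 (-0.17) and Usp18 (-0.27) negative for the mean, and Ddx58 (-0.33) and Usp18 (-0.97) at week 24. At week 2 array weights, the authors' log2 values, no background correction and a trended robust prior each gave 3, the mean of probes 2 and scaling by array medians 0. Array weights gave 2 at week 4. At week 8 the 6 arrays alone gave 0 and the mean of probes 2, which gave 1 late minus early. No detection filter gave 1 at week 24 and 1 for diet by week, where the muscle covariate gave 1. Without week 24 diet by week and normal diet over weeks gave 0, and the muscle covariate gave 2 for normal diet week 24 against week 0. The cause was not tested.

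Leaving out single arrays gave 5 to 6 for the mean, 0 to 3 at week 2, 0 to 2 at week 4, 0 to 1 at week 8, 0 to 0 at week 20 and 1 to 4 at week 24. It gave 0 to 3 for diet by week, 0 to 2 late minus early, 7 to 8 for high-fat diet over weeks, 2 to 5 for normal diet over weeks, 0 to 0 at normal diet week 20 and 3 to 5 at week 24 against week 0. With the replicate block, 5 genes passed for the mean and 3 at week 24, where Oasl2 was lost (adjusted p = 0.0536), as it was in the authors' log2 values and without background correction (3 genes each). With arrays scaled by their medians the share of higher among called genes was 25.5% for the mean (57% before), 0.913% at week 8 (44.1%), 14.2% at week 20 (65.3%) and 77.5% at week 24 (62.4%), and week 8 had 3725 calls in place of 202. Signal over background limits Irf7 and leaves Ifit1 unmeasured.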
